A study of Mus musculus with 15 samples.

Results

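Progress from the first gap phase of the cell cycle into DNA synthesis is controlled by D cyclins, the kinases CDK4 and CDK6 that they activate, and the inhibitors that hold those kinases back. The 10 genes described here, of 46603 with a row in each count table, are Ccnd1, Ccnd2, Ccnd3, Cdk4, Cdk6, Cdkn1a, Cdkn1b, Cdkn2a, Cdkn2b and Cdkn2c. They were taken as a named list of gap-phase control genes, found by symbol through their Ensembl identifiers, and the list was drawn up with earlier results of these data known. Of the 15997 genes with enough counts to be tested, 9 were members, and Cdkn2b was not among them.

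The RNA came from mouse embryonic fibroblasts (MEFs) of wild-type BALB/c embryos, given as 10.5 days old in the sample labels, and was sequenced as bulk RNA in 5 conditions with 3 samples each. MEFD0 cells were taken at the start of the treatment period in growth medium, which was DMEM with 10% FBS. MEFD3plu cells had then spent 3 days in the same medium plus 10 µg/mL insulin, 10 µM rosiglitazone (which activates PPARG), 1 µM dexamethasone (a glucocorticoid) and 0.5 mM IBMX (which raises cAMP), and MEFD5plu cells had spent 2 further days back in growth medium. MEFD3min and MEFD5min cells were kept in growth medium without those agents for the same times, and per the study's methods the agents were given once the cultures were confluent. The samples carry the replicate numbers 1, 3 and 4 in every condition, and values of 3 samples are listed in that order below. Total counts per sample ran from 24030558 to 37281126. No label says that the 3 samples of a condition came from separate cultures or embryos. The study's methods mention at least 3 independent experiments in a general section on statistics, without saying so of the sequenced samples, so the p-values measure the spread between these samples, which may be technical.

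Levels are CPM, counts scaled to library size with the TMM factors of edgeR. Differences are log2 fold changes with standard errors (SE) from the quasi-likelihood test of edgeR, with Benjamini-Hochberg adjustment over all genes tested, and a gene was called at an adjusted p under 0.05. In bulk RNA, fewer cells of a kind and less RNA per cell cannot be told apart.

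The labelled cell type was checked against marker genes. Of 12 genes of fibroblasts and mesenchyme, all were tested, and their summed level was 10700, 12200 and 11100 CPM in MEFD0, 25400, 36700 and 28000 in MEFD3min, 13700, 15100 and 14900 in MEFD3plu, 17000, 14800 and 15600 in MEFD5min, and 16700, 14900 and 16100 in MEFD5plu, with Col3a1 the most abundant at day 3 and Vim in the other conditions. The 10 adipocyte genes summed to 53, 57.9 and 61.8 CPM in MEFD0, 50.8, 57.1 and 65.2 in MEFD3min and 42.2, 42.4 and 46.7 in MEFD5min. In treated cells the same sum was 8010, 7570 and 9340 CPM in MEFD3plu and 9920, 11700 and 11400 in MEFD5plu, with Lpl the most abundant in MEFD3plu and Fabp4 in MEFD5plu, and Lep at no more than 3 counts in any sample. Thus treatment raised 9 of the 9 adipocyte genes tested on both days. Markers of endothelium summed to 1 to 18.7 CPM, of leukocytes to 2.07 to 7.35, of epithelium to 0.113 to 1.73, of muscle to 0.202 to 3.17 and of erythroid cells to 0 to 0.161, and endothelial Cldn5, leukocyte Adgre1 and Itgam, epithelial Epcam and Cdh1, muscle Myod1 and Myog, and glial Sox10 were at no more than 3 counts in all samples. The neural list reached 153 to 328 CPM, nearly all of it Nes, with a mean of 256 in MEFD0, 262 and 206 in untreated and treated cells of day 3, and 315 and 164 in those of day 5. Of its 4 tested genes, 4 were lower with treatment at day 3 and 2 at day 5. The endothelial means were 1.19, 6.47, 5.87, 14.7 and 14.1 CPM in the same order, mostly Emcn after MEFD0. The share of counts on mitochondrial genes was 3.15%, 3.05% and 3.54% in MEFD0, 3.29%, 2.44% and 4.12% in MEFD3min and 2.39%, 2.19% and 2.61% in MEFD5min, against 5.36%, 5.26% and 6.64% in MEFD3plu and 4.96%, 5.86% and 5.19% in MEFD5plu. The fibroblast list moved as well: 8 of its 12 genes were higher and 3 lower in MEFD3min than in MEFD0, and 2 were higher and 9 lower in MEFD3plu than in MEFD3min (median log2 fold change -1.71). The part of these marker sums and of the mitochondrial share in the changes below was not tested.

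As background, a D cyclin bound to CDK4 or CDK6 phosphorylates the retinoblastoma protein and its relatives, which frees E2F factors to switch on genes of DNA replication. The INK4 inhibitors (encoded by Cdkn2a, Cdkn2b, Cdkn2c and Cdkn2d) bind CDK4 and CDK6 themselves, while the Cip/Kip inhibitors (Cdkn1a, Cdkn1b and Cdkn1c) bind cyclin and kinase complexes, chiefly those of CDK2, and also help D cyclins to assemble with their kinases. In adipogenesis of fibroblast lines, confluent and arrested cells are known to re-enter the cycle for a short time after the hormones are added and then to leave it for good as they become adipocytes.

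Between MEFD3plu and MEFD3min, 6 of the 9 tested members were called against 56.1% of all genes tested, 3 higher in treated cells (28% of all genes) and 3 lower (28%). At day 5, between MEFD5plu and MEFD5min, 5 of 9 were called against 50.5%, 2 higher (26.3%) and 3 lower (24.2%). These shares are close to those of all genes, so the number of members called is no result about the members. What differed was which member moved and which way. On both days Ccnd1 was called lower and Cdkn2c higher, while Cdkn1a was called in opposite directions. The share of all genes called on both days was not computed, so how many members were called on both is no result about them. The median log2 fold change of the 9 members was -0.10 at day 3 and -0.10 at day 5, beside 0.00 and 0.01 for all genes. The difference between the treatment effects of the separate days was itself tested as an interaction, in which 6 of 9 members were called against 48.5% of all genes, 2 with the larger signed effect at day 3 (22.6%) and 4 with the larger at day 5 (25.8%).

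In cells that stayed in growth medium, 7 of 9 members were called between MEFD3min and MEFD0 against 60% of all genes, 4 higher in MEFD3min (31.4%) and 3 lower (28.6%). Between MEFD5min and MEFD0 the count was 5 of 9 against 46.4%, with 3 higher (24.5%) and 2 lower (21.9%). Between MEFD5min and MEFD3min it was again 5 of 9 against 42.8%, with 3 higher in MEFD5min (21.3%) and 2 lower (21.5%). After the agents were withdrawn, 7 of 9 members were called between MEFD5plu and MEFD3plu against 63%, 3 higher in MEFD5plu (33.8%) and 4 lower (29.2%). Treated cells were also set against the start: 5 of 9 members were called between MEFD3plu and MEFD0 against 63.5%, 3 higher (33.9%) and 2 lower (29.7%), and 8 of 9 between MEFD5plu and MEFD0 against 65%, 4 higher (35.2%) and 4 lower (29.8%). The remaining pairs served only to order the levels, with 8 of 9 members called between MEFD5min and MEFD3plu (62.7%) and 7 of 9 between MEFD5plu and MEFD3min (56.7%). Scaling by total counts alone shifted the all-gene median by -0.16 log2 units in MEFD5plu/MEFD5min, -0.12 in MEFD3min/MEFD0, 0.10 in MEFD5min/MEFD3min, -0.10 in MEFD3plu/MEFD0, -0.18 in MEFD5plu/MEFD0 and 0.18 in the interaction, and member changes under that scaling are to be read relative to these shifts. It took the share of called genes that were higher from 52.1% to 37% in MEFD5plu/MEFD5min, from 49.7% to 62.7% in MEFD5min/MEFD3min, from 54.2% to 43.7% in MEFD5plu/MEFD0 and from 46.7% to 59.5% in the interaction. The majority also turned, by fewer points, in MEFD3min/MEFD0 (52.3% to 43.9%), MEFD3plu/MEFD0 (53.3% to 46.6%) and MEFD5plu/MEFD3plu (53.6% to 49.1%).

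**Figure D1:**
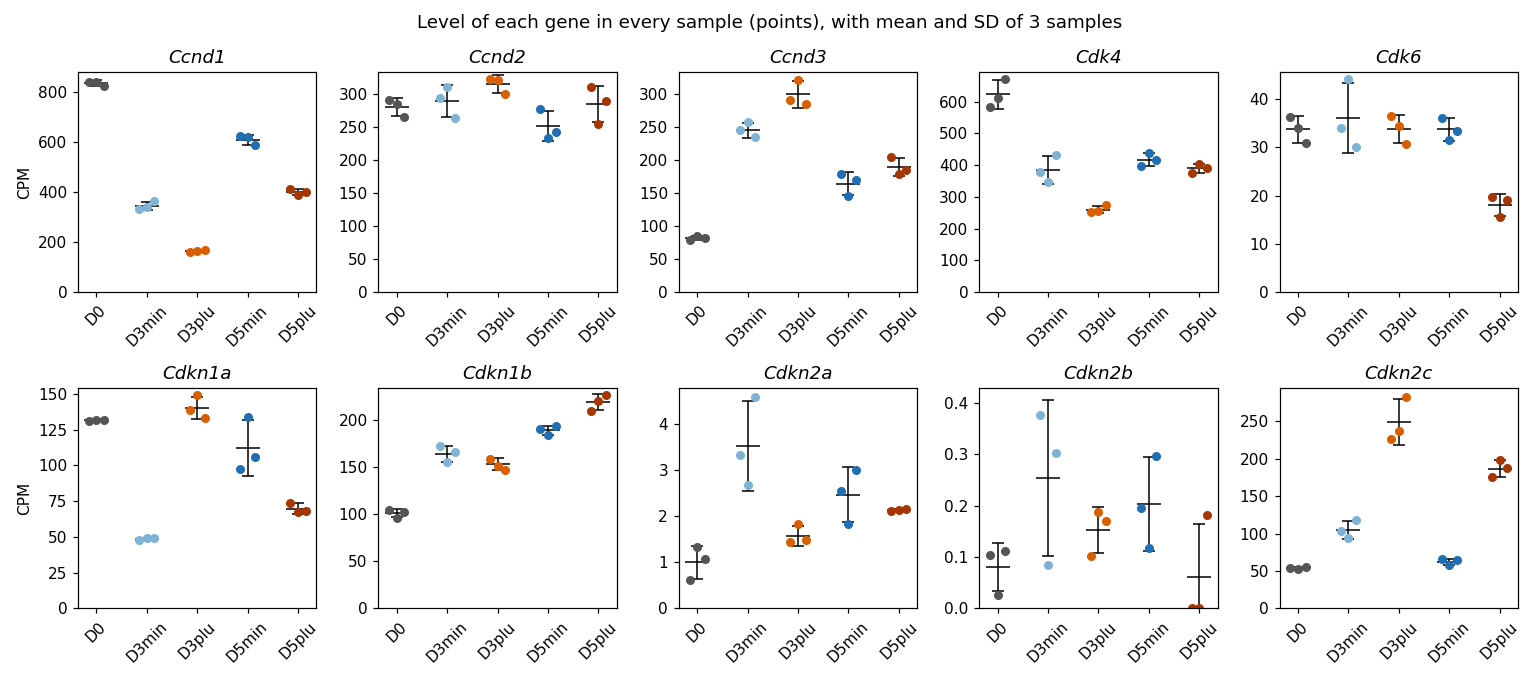
CPM (linear axis from 0, a separate scale for each gene) of the 10 genes in every sample (coloured points), with the mean (horizontal line) and SD (bars) of the 3 samples of each condition, which are named without their prefix MEF. Ccnd1 falls from a mean of 837 CPM in MEFD0 to 164 in MEFD3plu, Ccnd3 is lowest in MEFD0 at 81.4, Cdk6 is low in MEFD5plu at 18.1, and Cdkn1a is low in MEFD3min at 48.5 and high in MEFD3plu at 140.

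Ccnd1 encodes cyclin D1, the D cyclin that growth factors induce most directly in fibroblasts, and it lies on the minus strand of chromosome 7 of GRCm38 from 144929931 to 144939925. Its level was 843, 843 and 825 CPM in MEFD0, 331, 340 and 365 in MEFD3min and 160, 165 and 168 in MEFD3plu. At day 5 it was 623, 620 and 587 CPM in untreated and 413, 390 and 399 in treated cells. The 3 samples of each condition lay close together, no pair of conditions overlapped, and the treated samples were below the untreated ones on both days. Treatment lowered Ccnd1 by a log2 fold change of -1.07 (SE 0.0704, adjusted p 8.38e-10) at day 3 and -0.61 (SE 0.0696, adjusted p 1.95e-06) at day 5, and the larger fall at day 3 passed the test of the difference (-0.47, SE 0.0983, adjusted p 0.000891). In growth medium alone it had already fallen by day 3 (-1.28 against MEFD0, SE 0.0704, adjusted p 8.16e-11) and stood higher again at day 5 than at day 3 (0.82, SE 0.0698, adjusted p 6.26e-08). The means ordered as MEFD0 (837 ± 10.3 CPM, SD, n = 3), MEFD5min (610 ± 19.6), MEFD5plu (401 ± 11.4), MEFD3min (345 ± 17.2) and MEFD3plu (164 ± 4.16), and all 4 neighbouring pairs were called. The closest of these, MEFD5plu over MEFD3min (0.21, adjusted p 0.0146), was lost without MEFD3min replicate 1 (adjusted p 0.0645), MEFD5min replicate 4 (0.0604) or MEFD5plu replicate 1 (0.0505) and with DESeq2's size factors, total counts, no filter or only the samples compared, over a range of 0.00548 to 0.211.

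Ccnd3 encodes cyclin D3, the D cyclin that many cells keep or gain as they differentiate, on the plus strand of chromosome 17 from 47505051 to 47599691. It ran opposite to Ccnd1, with 78.2, 84.1 and 81.9 CPM in MEFD0, 245, 257 and 234 in MEFD3min and 291, 321 and 284 in MEFD3plu. At day 5 the level was 179, 145 and 169 CPM in untreated and 205, 179 and 184 in treated cells. MEFD0 was lowest, with all 3 samples far below the 12 others, and the highest untreated and the lowest treated sample of day 5 both rounded to 179. In growth medium MEFD3min stood 1.59 log2 units over MEFD0 (SE 0.0896, adjusted p 1.06e-10) and MEFD5min 1.01 over it (SE 0.0885, adjusted p 7.96e-08), with a fall between them (-0.58, SE 0.0875, adjusted p 4.4e-05). Treated cells were higher than untreated ones by 0.28 at day 3 (SE 0.0871, adjusted p 0.0105), a call lost without MEFD3plu replicate 3 (0.23, adjusted p 0.0596, over a range of 0.0046 to 0.0596 across alternatives). The day 5 difference of 0.21 (SE 0.0873, adjusted p 0.0601) was not called, but was called without MEFD5min replicate 1 (adjusted p 0.0302), MEFD3min replicate 3 or MEFD3min replicate 4 (0.0484 each) and with at least 10 counts asked of every sample (0.0475), within a range of 0.0302 to 0.708. The effects of the separate days did not pass the test of their difference (0.08, SE 0.123, adjusted p 0.634). The order was MEFD3plu (299 ± 19.9 CPM, SD, n = 3), MEFD3min (245 ± 11.3), MEFD5plu (189 ± 13.5), MEFD5min (164 ± 17.6) and MEFD0 (81.4 ± 2.96), and of the neighbours only MEFD5plu and MEFD5min were not called apart.

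Ccnd2 encodes cyclin D2, on the minus strand of chromosome 6 from 127125162 to 127152193. Its level was 290, 285 and 265 CPM in MEFD0, 294, 311 and 263 in MEFD3min and 323, 321 and 300 in MEFD3plu. At day 5 it was 277, 233 and 243 CPM in untreated and 310, 255 and 289 in treated cells. The ranges of all neighbouring conditions overlapped, from MEFD3plu (315 ± 13.3 CPM, SD, n = 3) through MEFD3min (289 ± 24.4), MEFD5plu (285 ± 27.5) and MEFD0 (280 ± 13.1) to MEFD5min (251 ± 23), and no neighbours differed (adjusted p 0.181 to 0.844). Only the highest and the lowest condition were called apart, MEFD5min being below MEFD3plu (-0.33, SE 0.0923, adjusted p 0.00541). Among the alternatives, MEFD5min was also called below MEFD3min (-0.205, adjusted p 0.0849 with all samples) with the replicate block (0.0489). The same held without MEFD3min replicate 4 (0.0265) or MEFD5min replicate 1 (0.036). Neither treatment difference was called, at 0.12 (SE 0.0922, adjusted p 0.278) for day 3 and 0.18 (SE 0.0923, adjusted p 0.115) for day 5. The day 5 difference was called without MEFD5min replicate 1 (0.26, adjusted p 0.047) or MEFD5plu replicate 3 (0.25, adjusted p 0.0477), over a range of 0.047 to 0.889.

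Set side by side per kilobase of exon, the mix of D cyclin mRNAs changed over the conditions. Ccnd1 made up 81.9%, 81.8% and 82.4% of the summed D cyclin CPM per kilobase in MEFD0, 54.3%, 53.7% and 58.6% in MEFD3min, 33.4%, 33.1% and 35.8% in MEFD3plu, 72.6%, 76.1% and 73.5% in MEFD5min, and 60.9%, 63.5% and 62.1% in MEFD5plu. The share of Ccnd3 was 4.07%, 4.38% and 4.39% in MEFD0 and 32.7%, 34.6% and 32.4% in MEFD3plu, with 21.2% ± 0.836, 10.7% ± 0.998 and 15.7% ± 0.421 (mean ± SD, n = 3) in MEFD3min, MEFD5min and MEFD5plu. Cyclin D1 was thus the main D cyclin mRNA in MEFD0, while in MEFD3plu the mRNAs of all 3 D cyclins stood near equal, with Ccnd2 at 32.7% ± 1.05 (n = 3). The sum itself was highest in MEFD0 at 217 ± 3.51 CPM per kilobase (SD, n = 3) and lowest in MEFD3plu at 102 ± 3.06, with 132 ± 2.5 in MEFD3min, 175 ± 6.4 in MEFD5min and 137 ± 6.76 in MEFD5plu. By the longest transcript in place of all exons, Ccnd1 held 77.4% in MEFD0 and 25.7% in MEFD3plu and Ccnd3 7.3% and 45.2%, so the near equality in MEFD3plu depends on the length used. These shares are descriptions and were not tested.

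**Figure D2:**
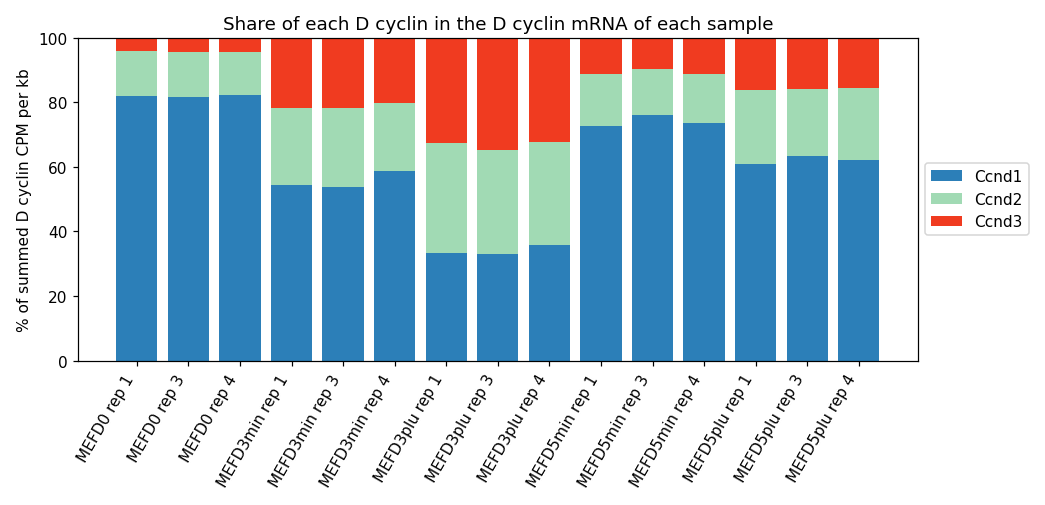
Share of Ccnd1, Ccnd2 and Ccnd3 in the summed D cyclin level of each of the 15 samples (vertical axis, percent of CPM per kilobase of exon; each bar is 1 sample and reaches 100%). The mean share of Ccnd1 is 82% in MEFD0 and 34.1% in MEFD3plu, and that of Ccnd3 is 4.28% and 33.2%.

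Cdk4 encodes the main catalytic partner of D cyclins in fibroblasts, on the plus strand of chromosome 10 from 127063534 to 127067920. Its level was 585, 611 and 673 CPM in MEFD0, 377, 347 and 432 in MEFD3min and 251, 256 and 274 in MEFD3plu. At day 5 it was 397, 437 and 415 CPM in untreated and 374, 404 and 391 in treated cells. All MEFD0 samples were above, and all MEFD3plu samples below, the samples of the other conditions, while those of MEFD3min, MEFD5min and MEFD5plu intermingled. Treatment lowered Cdk4 at day 3 (-0.57, SE 0.0887, adjusted p 3.49e-05), and the day 5 difference was not called (-0.10, SE 0.0884, adjusted p 0.388). The interaction was -0.47 (SE 0.125, adjusted p 0.00505). From MEFD3plu to MEFD5plu the level rose by 0.58 (SE 0.0888, adjusted p 2.51e-05). With total counts alone the day 5 difference became -0.26 (adjusted p 0.0101, range over alternatives 0.0101 to 0.66), beside a shift of all genes of -0.16. In order, the means were MEFD0 (623 ± 45.2 CPM, SD, n = 3), MEFD5min (417 ± 20.1), MEFD5plu (390 ± 15.2), MEFD3min (385 ± 43.3) and MEFD3plu (260 ± 11.8), and neither MEFD5min and MEFD5plu nor MEFD5plu and MEFD3min differed.

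Cdk6 encodes the second kinase of D cyclins, which in many lineages is lost on differentiation, on the plus strand of chromosome 5 from 3341485 to 3531008. It stood at 36.2, 34.1 and 30.8 CPM in MEFD0, 33.9, 44.2 and 30.1 in MEFD3min and 36.5, 34.4 and 30.6 in MEFD3plu. At day 5 it was 36.1, 31.5 and 33.4 CPM in untreated cells and 19.7, 15.5 and 19.1 in treated cells. The MEFD5plu samples were the 3 lowest of all 15, and the other conditions overlapped one another. The day 3 difference was not called (-0.10, SE 0.129, adjusted p 0.553), whereas Cdk6 fell at day 5 (-0.90, SE 0.132, adjusted p 2.88e-05), and the interaction was called (0.80, SE 0.184, adjusted p 0.00179). Across the alternatives its day 5 change stayed between -1.06 and -0.80. The means were 36.1 ± 7.32 CPM in MEFD3min, 33.8 ± 2.96 in MEFD3plu, 33.7 ± 2.71 in MEFD0, 33.7 ± 2.32 in MEFD5min and 18.1 ± 2.29 in MEFD5plu (SD, n = 3 each), and the first 4 of these did not differ (adjusted p 0.553 to 1 between neighbours). MEFD3min replicate 3, at 44.2 CPM, put that condition first: without it the difference to MEFD0 was -0.07 (adjusted p 0.612).

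Per kilobase of exon, Cdk4 was far above Cdk6 in every sample. The ratio of their levels was 69.6, 77 and 94.1 in MEFD0, 47.9, 33.8 and 61.9 in MEFD3min, 29.7, 32 and 38.5 in MEFD3plu, 47.4, 59.8 and 53.6 in MEFD5min and 81.7, 112 and 88 in MEFD5plu. Treated cells thus held the lowest ratios at day 3, where Cdk4 was down, and the highest at day 5, where Cdk6 was down, though MEFD5plu overlapped MEFD0 and MEFD3plu overlapped MEFD3min. By the longest transcript the means ran from 43.5 ± 5.93 in MEFD3plu to 123 ± 21.2 in MEFD5plu (SD, n = 3).

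**Figure D3:**
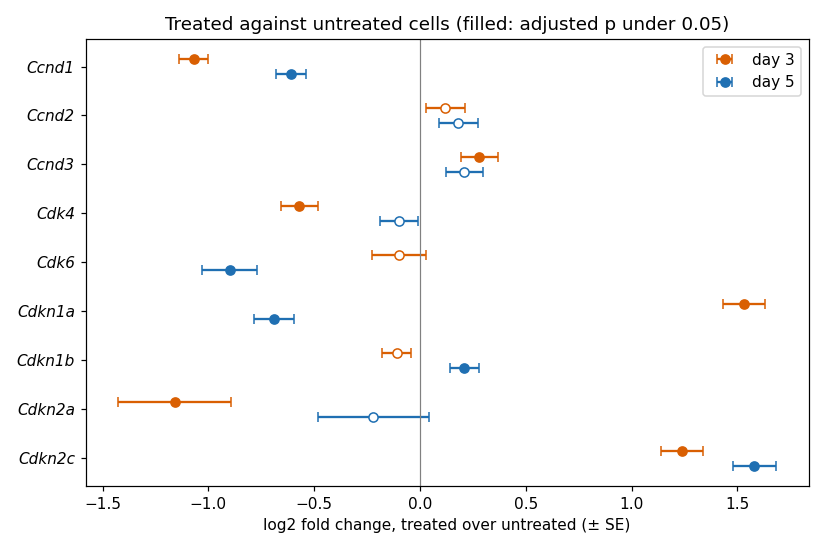
Log2 fold change of treated over untreated cells (horizontal axis) with its SE (bars) for the 9 tested genes, at day 3 (orange, MEFD3plu/MEFD3min) and day 5 (blue, MEFD5plu/MEFD5min), 3 samples per condition; filled points had an adjusted p under 0.05. Cdkn1a is at 1.53 on day 3 and -0.69 on day 5, Cdk4 and Cdk6 are called on different days, and Cdkn2c is at 1.24 and 1.58.

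Cdkn1a encodes p21Cip1, the inhibitor that p53 is best known to induce, on the plus strand of chromosome 17 from 29090976 to 29100727. Its level was 131, 132 and 132 CPM in MEFD0, 47.5, 49.2 and 48.9 in MEFD3min and 139, 149 and 133 in MEFD3plu. At day 5 it was 97.2, 134 and 106 CPM in untreated and 73.9, 67.5 and 68 in treated cells. Treated samples were all above untreated ones at day 3 and all below them at day 5. The log2 fold change was 1.53 at day 3 (SE 0.0986, adjusted p 6.49e-10) and -0.69 at day 5 (SE 0.0968, adjusted p 1.79e-05), and the interaction of 2.22 (SE 0.138, adjusted p 1.51e-09) had the largest size among the members. The untreated level itself had fallen from MEFD0 to MEFD3min (-1.44, SE 0.0984, adjusted p 1.26e-09). It had then risen from MEFD3min to MEFD5min (1.21, SE 0.0981, adjusted p 3.38e-08), so the controls of the separate days stood at different levels. Treated cells of day 5 were also below MEFD0 (-0.92, SE 0.097, adjusted p 3.03e-07) and below MEFD3plu (-1.01, SE 0.0971, adjusted p 1.46e-07). MEFD3plu did not differ from MEFD0 (0.09, SE 0.0957, adjusted p 0.412), although their samples did not overlap, and total counts alone gave -0.008. The order was MEFD3plu (140 ± 7.74 CPM, SD, n = 3), MEFD0 (132 ± 0.505), MEFD5min (112 ± 19.5), MEFD5plu (69.8 ± 3.57) and MEFD3min (48.5 ± 0.91). Neighbours further down were called, but MEFD0 and MEFD5min were not (adjusted p 0.061). That last difference (-0.23) was called with all samples by DESeq2 (adjusted p 0.043), with no filter (0.0498) and with a block for replicate number (0.0366). It was also called without MEFD5min replicate 3, which stood at 134 CPM (-0.38, adjusted p 0.000963), and the range was 0.000963 to 0.294.

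Cdkn1b encodes p27Kip1, which accumulates in contact-inhibited and resting cells mainly through slower breakdown of the protein, on the plus strand of chromosome 6 from 134920401 to 134925513. The levels were 104, 95.9 and 102 CPM in MEFD0, 172, 155 and 166 in MEFD3min and 159, 151 and 147 in MEFD3plu. Day 5 gave 190, 184 and 194 CPM in untreated and 210, 220 and 227 in treated cells. MEFD0 was below all other samples, treated and untreated samples overlapped at day 3, and at day 5 the treated samples were higher. The rise in growth medium was 0.70 by day 3 (SE 0.07, adjusted p 1.55e-07) and 0.91 by day 5 (SE 0.0701, adjusted p 1.64e-08). The treatment difference was not called at day 3 (-0.11, SE 0.0695, adjusted p 0.21) and was 0.21 at day 5 (SE 0.0694, adjusted p 0.0182). The interaction was -0.32 (SE 0.0982, adjusted p 0.0137). Its call was lost with total counts alone (-0.131, adjusted p 0.315) and with no filter (-0.332, adjusted p 0.0724), the range being 0.0054 to 0.315. The day 5 call was lost with DESeq2's size factors (0.165, adjusted p 0.0618) and with no filter (0.211, adjusted p 0.118). With total counts alone the change itself was smaller (0.047, adjusted p 0.618), beside a shift of all genes of -0.16. The call was also lost without MEFD5min replicate 3 (0.191, adjusted p 0.0574) or 4 (0.185, adjusted p 0.0789). The same held without MEFD5plu replicate 3 (0.207, adjusted p 0.0502) or 4 (0.184, adjusted p 0.0754), within a range of adjusted p of 0.0113 to 0.618. In order, MEFD5plu (219 ± 8.27 CPM, SD, n = 3) stood over MEFD5min (189 ± 4.83), MEFD3min (164 ± 8.28), MEFD3plu (153 ± 6.35) and MEFD0 (101 ± 4.26), and the pair from day 3 did not differ. The call between MEFD5min and MEFD3min (0.21, adjusted p 0.0244) was lost with no filter (adjusted p 0.285) and with only the samples compared (0.133). It was also lost without MEFD3min replicate 3 (0.0789), MEFD5min replicate 1 (0.0598) or MEFD5min replicate 4 (0.09). Over all alternatives its adjusted p ranged from 0.00285 to 0.285 and its log2 fold change from 0.165 to 0.307.

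Cdkn2c encodes p18Ink4c, on the minus strand of chromosome 4 from 109660876 to 109667189. Of the INK4 genes among the members it had the highest level in every sample, by CPM and per kilobase of exon. Cdkn2d, which is not a member, had mean levels of 14.9 to 34.6 CPM and was not compared per kilobase. The level of Cdkn2c was 53.3, 52.4 and 55.6 CPM in MEFD0, 103, 93.7 and 118 in MEFD3min and 226, 237 and 283 in MEFD3plu. At day 5 it was 65.7, 57.8 and 64 CPM in untreated and 175, 198 and 188 in treated cells. No pair of conditions overlapped, and the 6 treated samples were the 6 highest of the 15. Treatment raised Cdkn2c by 1.24 at day 3 (SE 0.0998, adjusted p 1.14e-08) and by 1.58 at day 5 (SE 0.101, adjusted p 1.64e-09). These effects did not pass the test of their difference (-0.34, SE 0.14, adjusted p 0.0565), which was called without MEFD3min replicate 3 (adjusted p 0.0152), MEFD3plu replicate 4 (0.0119) or MEFD5plu replicate 1 (0.0447), with at least 10 counts asked of every sample (0.0415) and with the replicate block (0.0253), over a range of 0.0119 to 0.299. In untreated cells it rose and fell again, with MEFD3min over MEFD0 by 0.97 (SE 0.1, adjusted p 2.64e-07) and MEFD5min back below MEFD3min (-0.75, SE 0.0998, adjusted p 1.2e-05). The means fell from MEFD3plu (249 ± 30.6 CPM, SD, n = 3) over MEFD5plu (187 ± 11.7), MEFD3min (105 ± 12.3) and MEFD5min (62.5 ± 4.14) to MEFD0 (53.8 ± 1.66), with only the lowest pair not called apart (adjusted p 0.0868). That pair was called with only the samples compared (0.0255), with the replicate block (0.0457) and with at least 10 counts asked of every sample (0.0473), within a range of 0.0255 to 0.258.

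Cdkn2a gives, from separate first exons, p16Ink4a and the p53 activator p19Arf, whose reads were counted together here, and it lies on the minus strand of chromosome 4 from 89274471 to 89294653. The gene is known to be switched on as MEFs are kept in culture. Its level was low, at 0.617, 1.33 and 1.06 CPM in MEFD0, 3.32, 2.67 and 4.57 in MEFD3min, 1.43, 1.82 and 1.47 in MEFD3plu, 2.54, 1.83 and 3 in MEFD5min and 2.11, 2.13 and 2.14 in MEFD5plu, which rests on 18 to 136 counts per sample. The 3 treated samples of day 3 were below the 3 untreated ones, and at day 5 the groups overlapped. Treatment went with a fall of -1.16 at day 3 (SE 0.265, adjusted p 0.0013), and the day 5 difference of -0.22 (SE 0.262, adjusted p 0.517) was not called. The interaction of -0.94 (SE 0.373, adjusted p 0.047) was lost with total counts alone, with the size factors of DESeq2 and without any of 10 libraries: MEFD0 replicate 4 (adjusted p 0.0556), MEFD3min replicates 1 (0.0617) and 4 (0.127), MEFD3plu replicates 1 (0.0924) and 4 (0.0844), MEFD5min replicates 1 (0.0706) and 3 (0.107) and MEFD5plu replicates 1 (0.0725), 3 (0.0763) and 4 (0.0787), within a range of 0.02 to 0.127. In growth medium the level rose from MEFD0 to MEFD3min (1.79, SE 0.276, adjusted p 2.63e-05) and was still higher in MEFD5min (1.28, SE 0.279, adjusted p 0.00117). In the order MEFD3min (3.52 ± 0.969 CPM, SD, n = 3), MEFD5min (2.46 ± 0.59), MEFD5plu (2.13 ± 0.013), MEFD3plu (1.57 ± 0.213) and MEFD0 (1 ± 0.358), no neighbours were called apart (adjusted p 0.0669 to 0.517), and the lowest pair was called without MEFD0 replicate 3 (0.0274).

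Cdkn2b, which encodes p15Ink4b and lies beside Cdkn2a on chromosome 4 from 89306299 to 89311039, had 3, 1 and 4 counts in MEFD0, 12, 3 and 9 in MEFD3min, 3, 6 and 6 in MEFD3plu, 7, 3 and 11 in MEFD5min and 0, 0 and 6 in MEFD5plu. With so few counts it was not tested, and no order of the conditions could be read. A count of 0 allows up to 3 counts, or 0.0894 and 0.0967 CPM in those MEFD5plu samples, by counting error only.

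Over the 15 samples 4 of the members moved together or in mirror image. Ccnd1 and Cdk4 followed each other (Pearson's r of their log2 CPM 0.937, n = 15), and both ran against Ccnd3 (-0.901 and -0.936) and Cdkn2c (-0.889 and -0.81). Cdkn1a followed none of them, with r between -0.333 and 0.0562 against those 4 genes, and ran most against Cdkn2a (-0.729). The largest sizes of r with any other member were lower for Cdkn1b (0.66, with Cdkn2a), Ccnd2 (-0.591, with Ccnd1) and Cdk6 (-0.544, with Cdkn1b). The points are 5 conditions of 3 samples each and share library scaling, so these values describe the conditions more than 15 separate observations.

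Among 9585 other genes whose log2 CPM averaged 3 or more, the 3 most like each member over the same 15 samples were named, also as a description. For Ccnd1 these were Zfp365 (r 0.995), Slc25a24 (0.993) and Spire2 (0.993), for Ccnd3 Dcaf8 (0.992), Thra (0.991) and Prr5 (0.988), and for Ccnd2, which varied little, D430042O09Rik (0.896), Sept11 (0.866) and Trmt1l (0.865). Cdk4 was most like Svip (0.988), Rala (0.983) and Rftn2 (0.982), and Cdk6 like Rcor1 (0.974), Tnpo2 (0.968) and Cds2 (0.966). Nearest to Cdkn1a were Rab3ip (0.99), Myc (0.978) and Baz1a (0.971). Myc, which encodes a growth-promoting transcription factor, was at 66.4, 64.6 and 60.7 CPM in MEFD0, 23.3, 29.7 and 23 in MEFD3min, 71.7, 81.1 and 72.3 in MEFD3plu, 58.8, 63.4 and 52.9 in MEFD5min and 34.5, 30.4 and 33.5 in MEFD5plu, so the growth promoter and the inhibitor were high and low in the same conditions. Cdkn1b was most like Zfp810 (0.972), Bnip3l (0.966) and Spp1 (0.965), and Cdkn2c like Zhx1 (0.992), Pxmp4 (0.99) and Mtmr1 (0.989). The genes nearest Cdkn2a, among 9586, were Chic2 (0.941), Serpinh1 (0.925) and Gabarapl1 (0.924).

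The remaining genes of the pathway were taken as fixed lists, which were not tested as sets. A listed gene said to rise or fall at a day was higher or lower in treated than in untreated cells of that day. Such a difference is not a change over time in treated cells. The counts are to be read beside the 56.1% of all genes called at day 3 and the 50.5% at day 5. At day 3 the share called was below that of all genes for the other inhibitors and for the cyclin E and A, replication, mitosis, turnover and regulator lists, and at day 5 for the other inhibitors and the p53 list. Of the 2 other inhibitors of these families, Cdkn1c (p57Kip2) was at 1.17, 0.504 and 1.06 CPM in MEFD0, 14.5, 11.5 and 16.7 in MEFD3min, 18.6, 18.3 and 20.7 in MEFD3plu, 5.28, 3.97 and 4.89 in MEFD5min and 25.2, 20.8 and 18.3 in MEFD5plu, higher with treatment at day 3 (0.43, SE 0.173, adjusted p 0.0428) and more so at day 5 (2.18, SE 0.187, adjusted p 6.49e-08). Cdkn2d (p19Ink4d) was not called on either day (-0.11, adjusted p 0.419, and -0.13, adjusted p 0.323). Among 13 pocket protein and E2F genes, 6 rose and 2 fell at day 3 and 0 rose and 8 fell at day 5. Rb1, the retinoblastoma gene, rose at day 3 (1.31, SE 0.128, adjusted p 1.41e-07) and was not called at day 5 (0.21, adjusted p 0.191). E2f1 fell on both days (-0.59, adjusted p 3.3e-06, and -0.38, adjusted p 0.000449). Of 8 genes for cyclins E and A, CDK2 and its activators, 3 rose and 1 fell at day 3 and 2 rose and 4 fell at day 5. Ccne1 (cyclin E1) was at 1.21 against untreated cells of day 3 and -0.85 against those of day 5. Its mean level was 17.9 and 15 CPM in MEFD3plu and MEFD5plu, and 7.76 and 27.1 CPM in MEFD3min and MEFD5min.

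The list of 23 replication genes that E2F controls showed how the untreated cells moved: all 23 were lower in MEFD3min than in MEFD0 (median log2 fold change -1.97, beside 0.04 for all genes, of which 28.6% were lower), and all 23 were higher in MEFD5min than in MEFD3min (median 1.48, beside -0.03 for all genes, of which 21.3% were higher). Treated cells moved the same way over time. All 23 were lower in MEFD3plu than in MEFD0 (median -2.15, with 29.7% of all genes lower). In MEFD5plu 21 were higher and 0 lower than in MEFD3plu (median 1.00, with 33.8% of all genes higher). Against untreated cells of the same day, treated cells had 2 of them higher and 4 lower at day 3 (median -0.05). At day 5 they had 0 higher and 18 lower (median -0.53). For 25 genes of G2 and mitosis the counts were 0 higher and 25 lower in MEFD3min/MEFD0 and 25 and 0 in MEFD5min/MEFD3min. In treated cells they were 0 and 25 in MEFD3plu/MEFD0 (median -2.34) and 25 and 0 in MEFD5plu/MEFD3plu (median 1.51). Treated against untreated cells gave 0 and 9 at day 3 and 0 and 19 at day 5. Ccnd1 and Cdkn1a moved the same way as these lists in untreated cells, down by day 3 and up again by day 5, while Ccnd3 and Cdkn2c moved the other way. Of 22 tested p53 pathway genes, 7 rose and 7 fell at day 3, when Cdkn1a rose, and 4 rose and 6 fell at day 5, when it fell; Trp53 itself was not called at day 3 (-0.13, adjusted p 0.281) and fell at day 5 (-0.73, SE 0.1, adjusted p 1.24e-05). Of 18 genes for the breakdown and folding of these proteins, 5 rose and 3 fell at day 3 and 2 rose and 8 fell at day 5, among them Skp2, whose product marks p27Kip1 for breakdown (-0.11, adjusted p 0.331, then -0.58, adjusted p 5.2e-05). Of 37 transcriptional regulators of the members, 10 rose and 8 fell at day 3 and 5 rose and 16 fell at day 5, led by Cebpa (4.82 and 4.34).

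The largest changes of each list, up to 2 genes in each direction and day, all with an adjusted p under 0.05, give these counts names. At day 3 E2f2 rose (1.24) and E2f8 fell (-0.80), and at day 5 E2f7 (-1.65) and E2f8 (-1.34) fell. Next to Ccne1, Ccne2 was up at day 3 (0.80) and Mnat1 down (-0.34), and at day 5 Cdk7 (0.46) and Ccnh (0.32), partners in the kinase that activates CDKs, were up and Cdc25a was down (-0.63). Among replication genes Rrm2 (0.64) and Rpa2 (0.46) rose and Gins2 (-0.97) and Mcm6 (-0.72) fell at day 3, and Cdt1 (-1.35) and Rrm2 (-1.11) fell at day 5. The mitotic genes were Cdc25b (-0.79) and Cenpe (-0.56) at day 3 and Foxm1 (-1.20) and Aurkb (-1.16) at day 5. Of the replication and mitotic genes named for day 5, Rrm2 (0.74), Foxm1 (0.57) and Aurkb (0.65) were called higher in MEFD5plu than in MEFD3plu. Cdt1 (-0.06) was not called there. In the p53 list Ddit4 (2.44) and Sesn1 (1.28) rose and Pmaip1 (-2.56) and Plk2 (-1.38) fell at day 3, and at day 5 Fas (0.88) and Sesn1 (0.73) rose and Pmaip1 (-2.14) fell with Trp53. Turnover genes were Fbxw7 (0.88), Fbxo31 (0.58), Cdc37 (-0.45) and Hsp90ab1 (-0.45) at day 3 and Fbxo4 (0.43), Rbx1 (0.30), Hsp90ab1 (-0.70) and Fzr1 (-0.66) at day 5. Besides Cebpa, the regulators were Cebpb (2.59), Mycn (-2.21) and Cbx7 (-1.33) at day 3 and Cebpb (0.95), Ets2 (-1.23) and Klf4 (-1.20) at day 5.

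Genes that the study names and common reference genes were read as well. Cdk1 and Hdac1 were lower with treatment at day 3 (-0.42, adjusted p 0.0115, and -0.22, adjusted p 0.0292), and at day 5 Cdk1 was not called (-0.29, adjusted p 0.0759) and Hdac1 was higher (0.31, adjusted p 0.0045). Cdk2 was not called at day 3 (-0.11, adjusted p 0.251) and was lower with treatment at day 5 (-0.48, adjusted p 4.94e-05). Within treated cells it was higher in MEFD5plu than in MEFD3plu (0.41, adjusted p 0.000157). Gapdh, Ppia and Tbp were not called on either day, at 0.10, -0.28 and -0.05 for day 3 and -0.20, 0.30 and 0.12 for day 5. With treatment Actb fell (-0.40 and -0.91) and Hprt rose (1.71 and 0.81) on both days, each by as much as several members. In growth medium, Gapdh (-0.92), Actb (-1.05), Ppia (-0.63) and Hprt (-1.37) were called lower in MEFD3min than in MEFD0. Tbp was not called there (-0.22). Gapdh (1.61), Actb (1.00), Hprt (0.95) and Tbp (0.36) were called higher in MEFD5min than in MEFD3min, and Ppia (0.30) was not. Gapdh, Actb and Hprt thus went down and up again in untreated cells, as Ccnd1 and Cdkn1a did.

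Reads over exons shared with a neighbour on the opposite strand could be added to a member's count or be left out of it. The labels name a library kit that does not mark strand, while the study's methods name one that does. The strand setting of the counting and its handling of such reads are not given in the sources used here. The levels per kilobase above use all exon bases and allow for neither case. Exons of antisense genes cover 23.4% of the exon bases of Ccnd1 (LTO1), 19.7% of Cdk4 (Tspan31), 7.9% of Ccnd2, 7.7% of Cdkn1a, 4.1% of Ccnd3 (Bysl) and 2.6% of Cdk6, and none of those of the remaining members. Stretches of 50 bases found in any other gene, on either strand, made up 21.6% of Ccnd1, 17% of Cdk4, 8.5% of Cdkn1a, 6.3% of Ccnd2, 5.4% of Ccnd3 and 3.3% of Cdk6. LTO1 had mean levels of 13.8 to 19.9 CPM, far below Ccnd1, and Tspan31 58.3 to 101 CPM, below Cdk4 and highest in MEFD5plu. Bysl, at 15.4 to 38.6 CPM, rose with treatment at day 3 (0.94, SE 0.129, adjusted p 7.78e-06), as Ccnd3 did, and fell at day 5 (-0.72, SE 0.131, adjusted p 0.000228). Its part in the Ccnd3 change was not tested.

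Promoter sequence was available for 8 of the 10 members, as the bases before the start of transcription in RefSeq's table (GRCm38.p6). The stretches below are those of 4 members with an entry that were called at day 3, leaving aside the scarce Cdkn2a. They are Cdk4, which fell, and Ccnd3, Cdkn1a and Cdkn2c, which rose. Each is at most 250 bases, ends at or within 31 bases of the start, leaves out bases that the annotation gives as exon, and runs 5′ to 3′ along the gene's strand. Capitals mark matches, on either strand, to the E-box CACGTG, the GC box GGGCGG, the CCAAT box CCAAT, the TATA box TATAAA, the cAMP response element TGACGTCA or the E2F motif forms TTTCCCGC and TTTGGCGC. Of all 32851 promoters of the table, over the full 250 bases, 6.02% hold the E-box, 32.7% the GC box, 33.9% the CCAAT box, 12.4% the TATA box, 1.55% the cAMP response element and 0.895% and 0.417% the E2F forms. Ccnd3 has 2 starts in the table, and for Cdkn1a and Cdkn2c the start whose stretch is not exon is shown.
Cdk4, chr10:127063285-127063533, plus strand: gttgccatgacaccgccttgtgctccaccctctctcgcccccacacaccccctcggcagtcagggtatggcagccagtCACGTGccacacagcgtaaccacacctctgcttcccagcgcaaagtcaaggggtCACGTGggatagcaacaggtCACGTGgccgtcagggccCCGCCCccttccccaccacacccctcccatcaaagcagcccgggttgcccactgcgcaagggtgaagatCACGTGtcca
Ccnd3 first start, chr17:47504801-47505050, plus strand: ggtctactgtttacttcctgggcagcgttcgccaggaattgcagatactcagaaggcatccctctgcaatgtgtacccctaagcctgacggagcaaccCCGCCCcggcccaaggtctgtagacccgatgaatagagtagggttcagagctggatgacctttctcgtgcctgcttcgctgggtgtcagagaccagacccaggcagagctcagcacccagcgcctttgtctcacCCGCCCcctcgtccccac
Ccnd3 second start, chr17:47593217-47593435, plus strand: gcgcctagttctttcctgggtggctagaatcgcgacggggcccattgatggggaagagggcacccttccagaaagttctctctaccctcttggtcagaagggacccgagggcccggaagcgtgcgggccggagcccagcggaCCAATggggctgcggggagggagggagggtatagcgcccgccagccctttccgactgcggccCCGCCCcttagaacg
Cdkn1a, chr17:29090729-29090975, plus strand: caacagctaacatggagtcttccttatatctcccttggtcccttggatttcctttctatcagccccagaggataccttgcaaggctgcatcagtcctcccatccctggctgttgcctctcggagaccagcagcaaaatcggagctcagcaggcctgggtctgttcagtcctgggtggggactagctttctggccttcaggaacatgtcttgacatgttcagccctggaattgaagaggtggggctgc
Cdkn2c, chr4:109665373-109665609, minus strand: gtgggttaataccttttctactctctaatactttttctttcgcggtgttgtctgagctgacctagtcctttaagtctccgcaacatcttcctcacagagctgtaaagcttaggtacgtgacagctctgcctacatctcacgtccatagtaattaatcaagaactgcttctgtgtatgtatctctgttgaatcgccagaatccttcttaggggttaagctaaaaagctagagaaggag
Cdk4 held 4 matches to the E-box, at -172, -118, -98 and -11 from the start, and 1 to the GC box at -80. The first stretch of Ccnd3 held GC boxes at -152 and -18, and the second a CCAAT box at -108 and a GC box at -46. None of the 7 motifs was found in the stretches of Cdkn1a and Cdkn2c. The other start of each of these genes was not searched, because its stretch is exon. The Cdkn2c stretch shown lies within the annotated gene. Whether their promoters lack the motifs is thus not known. Elsewhere among the members, Cdkn2b had a cAMP response element at -46, the p19Arf start of Cdkn2a an E2F form at -99 and a GC box at -48, Cdkn1b a GC box at -61 and CCAAT boxes at -161 and -35, and Cdk6 a TATA box at -103. The Cdk6 stretch held only 104 bases, lies within the annotated gene and has its match near the end far from the start. A match is a run of letters and was not tested as a site.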

How the data were processed

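Gene counts are those deposited by the authors, whose processing notes name TopHat2 2.1.0, HTSeq and DESeq2 on GRCm38; CPM were computed here. All 15 samples were fitted together with 5 conditions in edgeR 4.0.16 under R 4.3.3, with TMM scaling and filterByExpr. Each comparison used the quasi-likelihood test of edgeR, with Benjamini-Hochberg adjustment over 15997 genes. SE is the size of the log2 fold change over the square root of F. Of 46603 identifiers, 46091 had a name in GENCODE M21 and 512 did not. Lengths are the union of exons or the longest transcript. The members and gene lists were chosen with earlier results of these data known. From each list, the genes named are those with the largest changes of each day in each direction, with an average level of at least 1 CPM (log2 CPM of 0); Cdkn2d, the genes the study names and the reference genes were named besides, and Skp2 after its values were seen. Alternatives were DESeq2 1.42.0, its size factors in edgeR, total counts alone, no filter, at least 10 counts in every sample (12251 genes), only the samples compared, a replicate block, an adjusted p under 0.01 and leaving out each library. The steps were tested on simulated data.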

Additional observations from a re-analysis of the deposited data

Results flagged for a closer look

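The effect of treatment differed between day 3 and day 5, by the interaction test of the same model, for 6 of the 9 tested members and 30 of the 40 genes picked from the lists by the size of their change, 36 in all, against 48.5% of all genes. The picked genes were chosen for a large change on at least 1 day, which favours a difference between days. The values that follow are day 3 minus day 5 on the log2 scale. Among the members it was -0.47 for Ccnd1, -0.47 for Cdk4, 0.80 for Cdk6, 2.22 for Cdkn1a, -0.32 for Cdkn1b and -0.94 for Cdkn2a. Of the other inhibitors and the pocket protein and E2F genes, Cdkn1c was at -1.74, Rb1 at 1.10, E2f2 at 2.04 and E2f7 at 1.66. Genes that act with CDK2 were Ccne1 (2.06), Ccne2 (1.12), Mnat1 (-0.65), Cdk7 (-0.45) and Cdc25a (1.01). Replication and mitosis genes were Rrm2 (1.75), Rpa2 (0.87), Gins2 (-0.67), Mcm6 (-0.39), Cdt1 (1.17), Foxm1 (1.14) and Aurkb (1.25). From the p53 list came Ddit4 (2.25), Sesn1 (0.55), Plk2 (-0.93), Fas (-2.05) and Trp53 (0.60). Turnover genes were Fbxw7 (1.15), Fbxo31 (0.72), Cdc37 (-0.47) and Fzr1 (0.82). Regulators were Cebpb (1.64), Mycn (-1.78), Cbx7 (-1.54), Ets2 (1.51) and Klf4 (1.95). Genes named for other reasons that passed the same test were Myc (2.39), Cdk2 (0.38), Skp2 (0.47), Hdac1 (-0.54), Actb (0.51), Ppia (-0.58), Hprt (0.90) and Bysl (1.66).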

How the results depend on the processing

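No called member change took the opposite sign in any alternative, and most calls that were lost are given with their genes above. Among pairs used only to order levels, Cdkn1a in MEFD5min/MEFD3plu (-0.32, adjusted p 0.00767) was lost without MEFD5min replicate 1 (0.055) and with total counts alone (0.0611). Cdkn2a was lost in MEFD5plu/MEFD3min (-0.72, adjusted p 0.025) without MEFD3min replicate 4 (0.124) or MEFD5plu replicates 1 (0.0596), 3 (0.0621) or 4 (0.0606), and in MEFD5min/MEFD3plu (0.65, adjusted p 0.0433) without MEFD0 replicate 4, MEFD3min replicate 1, MEFD3plu replicates 1 or 4, MEFD5min replicates 1 or 4 or any MEFD5plu sample (0.0512 to 0.185). Of differences not called, Ccnd2 in MEFD5min/MEFD3min was called without MEFD3min replicate 4 (0.0265) or MEFD5min replicate 1 (0.036) and with the replicate block (0.0489), and Cdk4 there with total counts alone (0.0325); the rest are given above. Member differences that took the opposite sign were all small and none was called. With DESeq2 these were Cdk6 in MEFD5min/MEFD0 (-0.017) and MEFD3plu/MEFD0 (-0.016), Ccnd2 in MEFD5plu/MEFD0 (-0.037) and Cdk4 in MEFD5plu/MEFD3min (-0.034), and DESeq2's size factors in edgeR gave -0.017, -0.016, -0.037 and -0.034 for the same. Total counts alone gave Ccnd2 -0.073 and Cdk6 -0.019 in MEFD3min/MEFD0, Cdk6 -0.022 in MEFD5min/MEFD0, Cdk6 -0.095 and Cdkn1a -0.008 in MEFD3plu/MEFD0, Ccnd2 -0.159 in MEFD5plu/MEFD0, Cdk6 0.073 in MEFD5min/MEFD3plu, Cdk4 -0.043 in MEFD5plu/MEFD3min and Ccnd2 0.122 in the interaction. No filter gave Cdk6 -0.027 in MEFD5min/MEFD0, Ccnd2 -0.003 in MEFD5plu/MEFD0 and Cdk4 -0.025 in MEFD5plu/MEFD3min. With only the samples compared, Cdk6 was -0.039 in MEFD3plu/MEFD0 and 0.002 in MEFD5min/MEFD3plu, Ccnd2 -0.01 in MEFD5plu/MEFD0 and Cdk4 -0.032 in MEFD5plu/MEFD3min. Leaving out each library in turn, Cdk6 ran from -0.21 to 0.079 in MEFD3plu/MEFD3min, -0.073 to 0.216 in MEFD3min/MEFD0, -0.061 to 0.053 in MEFD5min/MEFD0, -0.215 to 0.074 in MEFD5min/MEFD3min, -0.055 to 0.073 in MEFD3plu/MEFD0 and -0.072 to 0.052 in MEFD5min/MEFD3plu. Ccnd2 likewise ran from -0.007 to 0.112 in MEFD3min/MEFD0, -0.042 to 0.097 in MEFD5plu/MEFD0, -0.088 to 0.049 in MEFD5plu/MEFD3min and -0.136 to 0.006 in the interaction, and Cdk4 from -0.055 to 0.106 in MEFD5plu/MEFD3min. The residuals of samples with the same replicate number in different conditions correlated at 0.0572 on average, from -0.152 to 0.36, against -0.0286 for different numbers, and 10 of 30 pairs were over 0.1, among them all 3 of MEFD3min and MEFD3plu (0.143, 0.228 and 0.36). Of 15 samples, 11 correlated best with their own number. A block for the replicate number gave 9452 genes and 6 members called at day 3, 8607 and 5 at day 5 and 8305 and 7 in the interaction, with Cdkn2c added there (adjusted p 0.0253). It also called Cdkn1a (0.0366) and Cdkn2c (0.0457) in MEFD5min/MEFD0 and Ccnd2 in MEFD5min/MEFD3min. The cause of the sign changes was not tested.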
